A study of Mus musculus with 10 samples.

Results

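The genes described here are those of the entry into the cell cycle: Myc and Mycn, the D cyclins Ccnd1, Ccnd2 and Ccnd3, the E cyclins Ccne1 and Ccne2, and the kinases Cdk2, Cdk4 and Cdk6. They were taken as every probe that the scanner files name for one of these genes, which gave 10 genes of the 28034 names on the array, read by 20 of 41174 probes. Each gene had from 1 to 3 probes, and the brightest one that passed the filter and had a value in every replicate of a comparison stands for the gene there. All 10 genes had a probe that passed in each comparison, meaning that 1 or both groups had it well above background on all of their arrays.

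R-spondin is a secreted protein that binds the receptors Lgr4 and Lgr5 and raises Wnt signalling in intestinal crypts, the pits that hold the dividing cells of the epithelium. In the first gap phase of the cell cycle, D cyclins switch on the kinases Cdk4 and Cdk6, E cyclins then switch on Cdk2, and these kinases phosphorylate the retinoblastoma proteins, which releases E2F factors to turn on the genes of DNA replication. Myc is a transcription factor that drives growth and ribosome production, and Myc, Ccnd1 and Ccnd2 are known as genes that respond to Wnt or to Myc in intestinal cells.

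The 10 two-colour mouse arrays covered 3 comparisons, all 1 day after the perturbation. Crypts from the small intestine of Lgr4/5 double knockout mice, deleted with the inducible P450Cre, were set against wild type crypts on 4 arrays, which were 2 biological replicates each run on a pair of arrays with swapped dyes. The labels state no induction for the wild type crypts. Organoids, which are crypts grown in culture as small epithelia, came from VillinCre_Lgr4fl/fl-Lgr5fl/fl mice for the deleted group and from VillinCre_wt mice for the wild type group, with 2 cultures each. The labels name tamoxifen induction for the wild type cultures and deletion for the others. VillinCre acts in the intestinal epithelium. A further pair of organoid cultures was grown with EGF and Noggin but without R-spondin, or with EGF, Noggin and R-spondin, for 1 day after splitting. The organoid RNA was labelled with Cy5 and shared its array with a Stratagene mouse reference RNA labelled with Cy3. The labels call the crypt replicates and the second organoid cultures biological replicates but do not say whether each came from its own animal, so p-values measure the spread between these samples, which may be partly technical.

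Some features of the arrays touch every result. The Cy3 reference channel of the 4 deletion organoid arrays had only 3.66% to 4.26% of gene spots above background. No probe of the 10 genes was well above background in that channel. Organoid changes are therefore given from Cy5, with the ratio to the reference beside each of the 10 genes and beside the list medians. The ratio holds the same Cy5 signal, so it is not a separate measurement. In crypts, the dye-swapped arrays of replicate 1 correlated weakly (r = 0.351 over 14234 probes) and those of replicate 2 closely (r = 0.92). Of the 4 Lgr4 probes, 2 were lower in every deleted replicate, one of them at -1.51 and -1.61 log2 in crypts and at -3.68 and -3.47 on the 2 organoid slides. Another Lgr4 probe read 0.21 and 1.09 in crypts and 0.57 and -0.28 in organoids, and the last one was well above background in no group. The labels do not give the deleted exons, so a probe outside them checks nothing. The Lgr5 probe read -1.89 and -1.48 in crypts and was not well above background in deleted organoids. Epithelial markers were above background in every group (8 of 8), and Pecam1, Cdh5 and Kdr, which mark endothelium, were above background on none of the arrays. In bulk samples, fewer cells of a type and less RNA per cell cannot be told apart.

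Deleted crypts and organoids both had lower Cdk6, Ccnd2, Myc and Ccnd1 than wild type, and organoids without R-spondin had lower levels of these and of Ccne1, Ccne2 and Cdk4. Ccnd3, the third D cyclin, and Mycn, a relative of Myc, were not lower in organoids by Cy5. No gene of the set passed limma's test after Benjamini-Hochberg adjustment in crypts or in organoids by Cy5, where 0.0492% of 12204 genes and 0.0376% of 13311 genes did. At an unadjusted p under 0.05, 3 of the 10 were lower in deleted crypts (Myc, Ccnd2 and Cdk6), against 7.3% of all genes, and 0 were higher, against 6.43%. In deleted organoids 4 were lower (Myc, Ccnd1, Ccnd2 and Cdk6), against 4.25% of all genes, and Mycn was higher, against 3.49%. By the ratio the same 4 were lower, against 1.78%, and 0 were higher, against 2.1%, with no gene of the array passing the adjusted test. Without R-spondin, 7 of the 10 were lower by more than 2-fold, against 6.47% of 17164 genes, and 0 were higher by that much, against 4.51%. By Cy5 the 7 were the same, against 7.09% of 17620 genes. There is 1 array for each R-spondin condition, so the last comparison has no test.

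**Figure D1:**
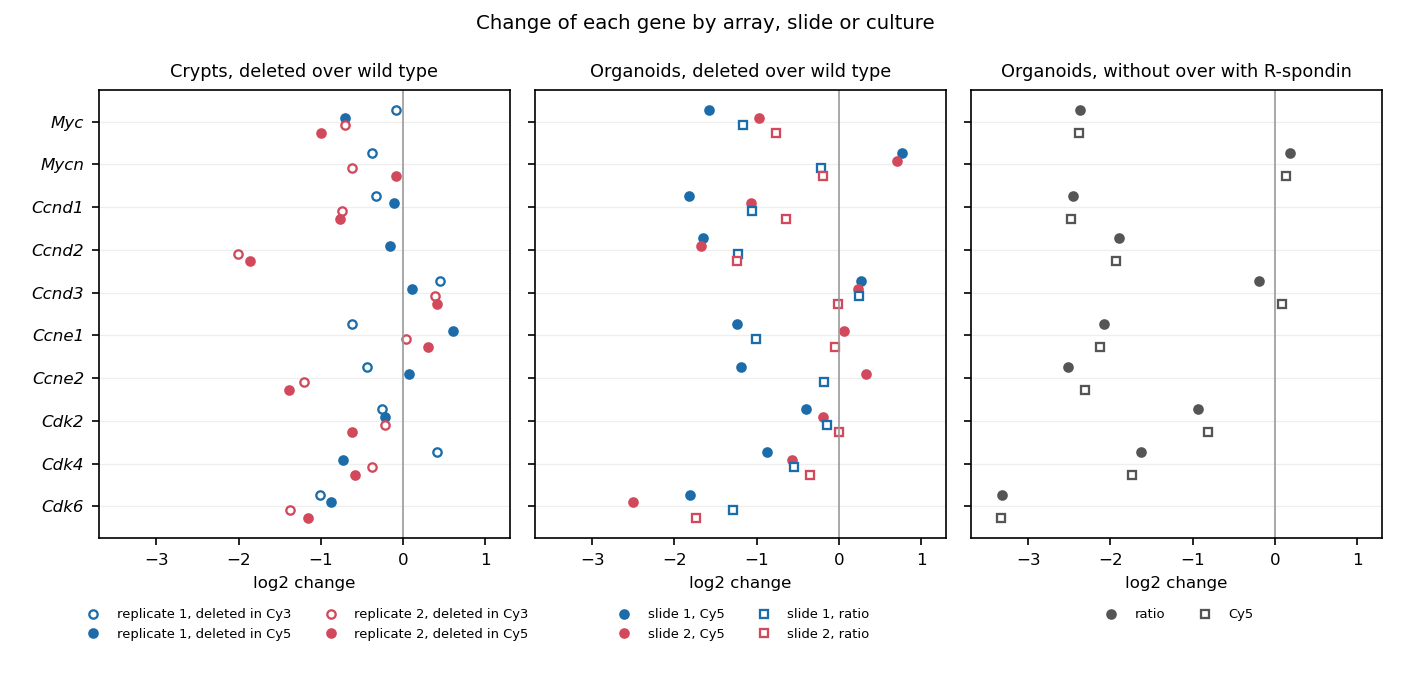
The log2 change of each of the 10 genes (rows, by the probe used in that comparison) in deleted over wild type crypts on each array, in deleted over wild type organoids on each slide by Cy5 (filled circles) and by ratio (open squares), and without over with R-spondin by ratio (filled circle) and Cy5 (open square). Cdk6 lies left of 0 at every point, from -0.88 to -1.37 on the crypt arrays and at -3.32 without R-spondin by ratio, and Ccnd3 lies at or right of 0 except by ratio on slide 2 and without R-spondin.

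Myc was read by 3 probes on chromosome 15. Its brightest probe, spotted 10 times, gave normalised intensities of 6830 and 4848 on the arrays of deleted crypt replicate 1 and 3255 and 3509 on those of replicate 2, against 7230, 7932, 5307 and 7031 in the wild type crypts on the same arrays. Every array read lower in the deleted crypts, though the deleted-in-Cy3 array of replicate 1 read only -0.08 log2. Replicate 1 gave -0.40 and replicate 2 gave -0.85, and the mean was -0.63 log2 (SE 0.24, n = 2; limma adjusted p = 0.343). In organoids Myc had 981 and 1958 in the deleted cultures, against 2936 and 3839 in the wild type cultures, a change of -1.28 (SE 0.37, n = 2 each; limma adjusted p = 0.488). Both deleted cultures lay below both wild type ones, as for 18.5% of all genes tested, and the ratio gave -0.97. Without R-spondin Myc had a Cy5 intensity of 2243, against 11320 with R-spondin, which is 5.15-fold lower by ratio. Myc ranked 133rd lowest of 17164 genes in that comparison.

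The other Myc probes gave smaller or similar changes. The second probe gave -0.50, -1.30 and -2.48 log2 in deleted crypts, deleted organoids and without R-spondin. The third, in the coding sequence and the dimmest, gave -0.26, -0.82 and -1.86. It is shown as its 60-base probe from the scanner files, on the plus strand of mm9 at chr15:61820925-61820984.
Myc probe A_52_P278549: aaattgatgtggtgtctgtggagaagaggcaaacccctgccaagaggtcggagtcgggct
On the deleted-in-Cy3 array of replicate 1 the second probe read 0.32, the reverse of its other 3 arrays, and on the deleted-in-Cy5 array the third probe read 0.03. All 3 probes were lower by Cy5 on both organoid slides.

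Mycn, a paralogue of Myc, had values on both sides of 0. Its brighter probe had 268 and 221 in deleted organoids, against 158 and 136 in wild type organoids, 0.73 log2 higher by Cy5 (SE 0.23; limma adjusted p = 0.532) but -0.20 by ratio. In crypts it was -0.36 (SE 0.22; limma adjusted p = 0.495), with 359, 434 and 508 in deleted crypts, against 464, 670 and 540 in wild type crypts on the 3 arrays that measured it. Without R-spondin its Cy5 intensity was 581, against 542 with it, 0.19 log2 higher by ratio. The other Mycn probe was not well above background in any of the deletion organoid cultures. The crypt change minus the organoid change by Cy5 was -1.10 (SE 0.32; limma adjusted p = 0.574), and by ratio it was -0.16.

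Ccnd1, the cyclin D1 gene, is read by a single probe on chromosome 7, spotted 10 times. It had 3808, 3624, 2479 and 2425 on the arrays of deleted crypts, against 4780, 3917, 4157 and 4140 in wild type crypts. Replicate 2 gave -0.76 log2 and replicate 1 gave -0.22, and the mean was -0.49 (SE 0.24; limma adjusted p = 0.426). In organoids it had 649 and 1300 in deleted cultures, against 2303 and 2732 in wild type cultures. That is -1.45 log2 (SE 0.36; limma adjusted p = 0.417), and -0.85 by ratio. The authors' log ratios gave -0.02 for Ccnd1 in the organoids, -0.46 for Myc and -0.95 for Ccnd2. Without R-spondin its intensity was 1007, against 5460 with it, 5.49-fold lower by ratio.

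Ccnd2, cyclin D2, had the second lowest value of the 10 genes in organoids. Its probe used there had 4253 and 4432 in deleted cultures, against 13400 and 14190 in wild type cultures. The change was -1.67 log2 (SE 0.21; limma adjusted p = 0.108), or 3.18-fold lower, and the 2 slides gave -1.66 and -1.68. By ratio it was -1.23, and the other 2 probes gave -1.72 and -1.52 by Cy5. Without R-spondin the brightest probe had 14790, against 48130 with R-spondin, 3.72-fold lower by ratio. Only 52 of 13311 genes were as low or lower than Ccnd2 in the deleted organoids, Ccnd2 included.

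In crypts Ccnd2 rested mainly on replicate 2. No probe of Ccnd2 was measured on the deleted-in-Cy3 array of replicate 1, and 1 of the 3 was missing on its other array, because the scanner software had marked these spots as outliers. That left out the brightest probe, which had 18850 and 17570 in deleted crypts, against 28930 and 26990 in wild type crypts, on the arrays of replicate 2, a change of -0.62. The next brightest had 25300 in deleted crypts, against 28220 in wild type crypts, on the remaining array of replicate 1. On the arrays of replicate 2 it had 7369 and 6838, against 29610 and 24760. Replicate 1 therefore gave -0.16 and replicate 2 gave -1.93, for a mean of -1.04 (SE 0.42; limma adjusted p = 0.364). The third probe gave -0.17 and -1.06. With marked spots kept, the brightest probe stood for the gene and gave -0.45 and -0.61, a mean of -0.53, while the probe with -1.04 gave -0.97. Some of these probes lie in the coding sequence, on the minus strand of chromosome 6, at chr6:127089187-127089246 and chr6:127098696-127098755 of mm9, and are shown as the probes used for the organoid and R-spondin values.
Ccnd2 probe A_51_P433228: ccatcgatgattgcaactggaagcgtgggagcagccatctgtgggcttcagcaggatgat
Ccnd2 probe A_52_P53906: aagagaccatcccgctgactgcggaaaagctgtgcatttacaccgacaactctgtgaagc

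Ccnd3, cyclin D3, was not lower in either deletion comparison. It had 1340, 1367, 989 and 1197 in deleted crypts, against 978, 1265, 756 and 902 in wild type crypts, higher on every array (0.34 log2, SE 0.22; limma adjusted p = 0.521). Being higher on every measured array held for 16.9% of all genes. In organoids it had 861 and 850 in deleted cultures, against 716 and 727 in wild type cultures (0.25, SE 0.21; limma adjusted p = 0.875), and 0.12 by ratio. Without R-spondin its Cy5 intensity was 2015, against 1984 with it, which is -0.19 by ratio and 0.09 by Cy5.

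Cdk6, a kinase that D cyclins activate, had by its brightest probe the largest change of the 10 genes in each of the 3 comparisons, though in crypts Ccnd2 was within 1 SE of it. The probe had 3415, 3114, 2333 and 2734 on the arrays of deleted crypts, against 6874, 5734, 6043 and 6114 in wild type crypts. It was lower on every array, as 18.6% of all genes were. The change was -1.11 log2 (SE 0.23; limma adjusted p = 0.179), with -0.94 in replicate 1 and -1.27 in replicate 2. In organoids it had 1143 and 1038 in deleted cultures, against 4023 and 5899 in wild type cultures, 4.47-fold lower (-2.16 log2, SE 0.26; limma adjusted p = 0.108). By ratio it was -1.51, and the slides gave -1.82 and -2.51 by Cy5. Without R-spondin the intensity was 792, against 7665 with R-spondin, -3.32 log2 by ratio, and only 21 of 17164 genes were as low, Cdk6 included.

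The Cdk6 value depended on the probe. The brightest probe is assigned in the files to a cDNA record, and the other 2 to the RefSeq transcript. The dimmer of those 2 was well above background in at most 2 of 4 channels in either crypt group, and gave -0.41 in crypts. In organoids it was well above background in 1 wild type culture and in no deleted one, so no change is given. The other, at 110 and 114 in deleted organoids, against 161 and 175 in wild type organoids, gave -0.58 there, but 0.13 in crypts. Its crypt readings were 278, 273, 304 and 306 in deleted crypts, against 262, 291, 246 and 261 in wild type crypts. Without R-spondin it gave -1.76. The RefSeq-assigned coding probe is printed here because it is the one that was not lower in crypts. Its 60 bases are placed across chr5:3473220-3515504 of mm9, plus strand, a span of 42285 bases that holds an intron.
Cdk6 probe A_52_P417489: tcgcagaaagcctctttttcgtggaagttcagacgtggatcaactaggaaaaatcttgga

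**Figure D2:**
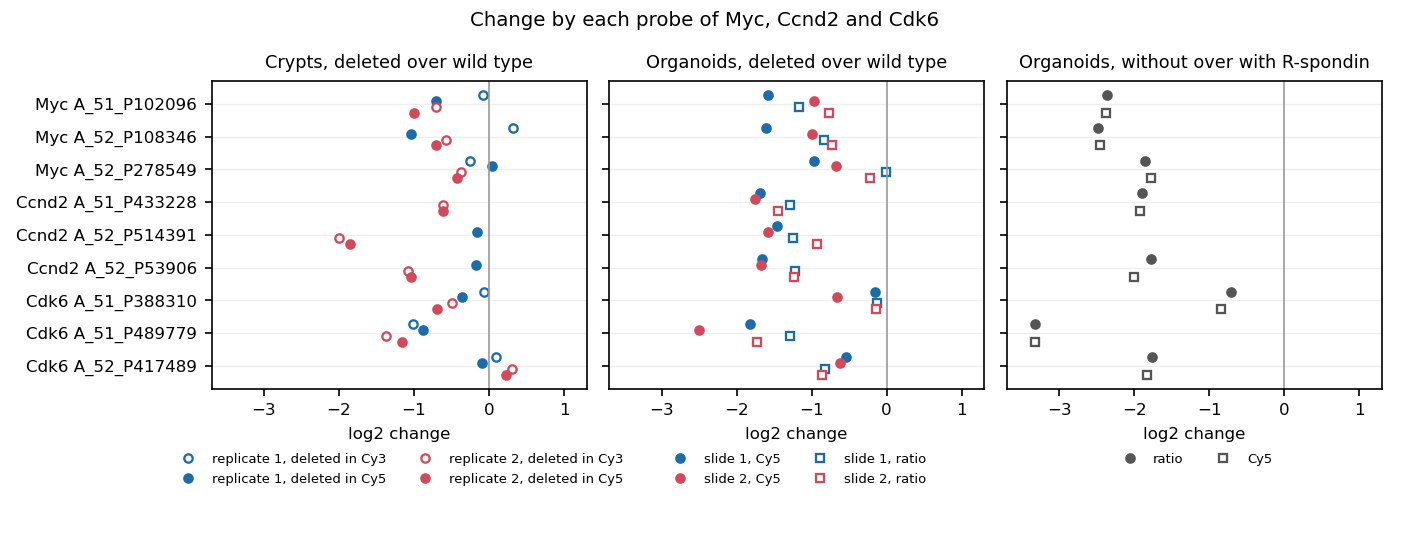
The log2 change read by each of the 3 probes of Myc, of Ccnd2 and of Cdk6 (rows), by crypt array, organoid slide and R-spondin culture, as in the plot of the 10 genes. The 3 Cdk6 probes spread from -1.11 to 0.13 on average in crypts, while the 3 Ccnd2 probes lie between -1.52 and -1.72 in organoids by Cy5.

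Cdk4, the other kinase of the D cyclins, had values nearer to 0 than those of Cdk6, a difference that was not tested. Its single probe had 3575, 2484, 2110 and 2434 in deleted crypts, against 2683, 4106, 2742 and 3654 in wild type crypts (-0.32 log2, SE 0.23; limma adjusted p = 0.559). The arrays of replicate 1 gave 0.41 and -0.73, and so did not share a direction. In organoids it had 1096 and 2203 in deleted cultures, against 2012 and 3264 in wild type cultures (-0.72, SE 0.41; limma adjusted p = 0.758), so the groups overlapped, and the ratio gave -0.45. Without R-spondin its intensity was 2162, against 6998 with it, 3.1-fold lower by ratio.

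Promoters of 6 of the 10 genes were found in the RefSeq table of GRCm38.p6, covering the 250 bases before the start of transcription. They were searched on both strands for the Myc site CACGTG, the TCF cores CTTTGA and CTTTGT and the E2F sites TTTCCCGC, TTTGGCGC and TTTCGCGC. CACGTG occurred in 6.02% of 32851 promoters, CTTTGA in 13.8% and CTTTGT in 16.5%. The Cdk4 promoter held 4 CACGTG matches and 1 CTTTGA match, and the Cdk6 promoter held 1 CACGTG match. They are shown as the promoters of the kinases of the D cyclins, with the matches in capitals. The Cdk4 promoter lies at chr10:127063285-127063534 and the Cdk6 promoter at chr5:3343643-3343892, both on the plus strand.
Cdk4 promoter: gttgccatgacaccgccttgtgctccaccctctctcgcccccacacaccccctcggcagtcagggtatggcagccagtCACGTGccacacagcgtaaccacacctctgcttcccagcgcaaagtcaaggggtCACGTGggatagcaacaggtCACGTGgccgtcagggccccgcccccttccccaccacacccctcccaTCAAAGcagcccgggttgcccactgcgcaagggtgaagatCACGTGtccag
Cdk6 promoter: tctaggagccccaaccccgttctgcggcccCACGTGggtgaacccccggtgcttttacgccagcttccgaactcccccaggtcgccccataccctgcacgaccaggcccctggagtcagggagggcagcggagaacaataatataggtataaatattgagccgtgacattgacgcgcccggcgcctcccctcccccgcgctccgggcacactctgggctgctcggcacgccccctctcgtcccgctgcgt
Of the others, Ccnd3 held a CTTTGT in 1 of its 2 promoters and Cdk2 a TTTCCCGC, which 0.895% of promoters hold. Mycn held CTTTGA, 2 TTTGGCGC and 1 TTTCGCGC that overlaps the first of them, where 0.417% of promoters hold TTTGGCGC and 0.256% hold TTTCGCGC. Ccne1 held no match. A match describes these letters only.

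The E cyclins and Cdk2 act after the D cyclins. Ccne1 had 764 and 1285 in deleted organoids, against 1811 and 1229 in wild type organoids, with -1.25 on slide 1 and 0.06 on slide 2 (mean -0.59, SE 0.34; limma adjusted p = 0.762; -0.53 by ratio). In crypts it had 3886, 4618, 3353 and 3460 in the deleted samples, against 5971, 3020, 3282 and 2811 in the wild type ones, and the arrays of replicate 1 gave -0.62 and 0.61 (mean 0.08, SE 0.22; limma adjusted p = 0.894). Its second, dimmer probe gave 0.07 in crypts, -0.20 in organoids and -1.12 without R-spondin. Ccne2 was dim in organoids, at 107 and 117 in deleted cultures, against 244 and 93.2 in wild type cultures, the last of them not well above background (-0.43, SE 0.45; limma adjusted p = 0.906). The ratio is by its other probe and gave -0.37. In crypts Ccne2 had 1244, 1377, 436 and 416 in the deleted samples, against 1682, 1305, 1006 and 1084 in the wild type ones (-0.74, SE 0.32; limma adjusted p = 0.377), with -0.18 in replicate 1 and -1.29 in replicate 2. Without R-spondin Ccne1 had 776, against 3382 with it, 4.23-fold lower by ratio, and Ccne2 had 137, against 678, 5.7-fold lower by ratio. The other Ccne2 probe was not well above background without R-spondin, against 368 with it. Cdk2 was dim throughout, at 85.2, which was not well above background, and 120 in deleted organoids, against 113 and 138 in wild type organoids, and its second probe was well above background on none of the arrays. Its changes were -0.33 in crypts, -0.30 in organoids by Cy5 and -0.08 by ratio, and -0.94 without R-spondin. By the authors' processed ratios Cdk2 was -1.82 and Ccne2 -3.35 without R-spondin, which puts 8 of the 10 genes past 2-fold lower, against 9.14% of all genes.

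**Figure D3:**
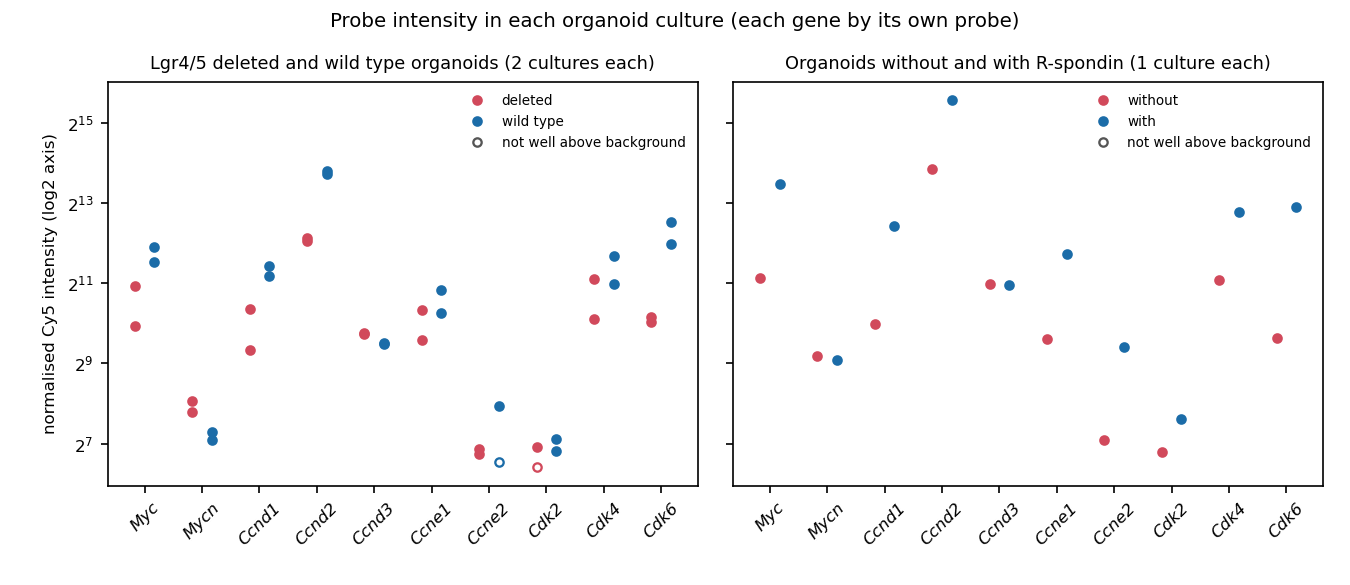
Normalised Cy5 intensity of the 10 genes (log2 axis, each gene by its own probe, so heights are not compared between genes) in deleted and wild type organoids at left, 2 cultures each, and in cultures without and with R-spondin at right, 1 each. Points for Cdk6 sit at 1143 and 1038 in deleted organoids, against 4023 and 5899 in wild type ones, and Ccnd3 and Mycn do not sit lower without R-spondin.

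Across the set, 8 of 10 genes were lower in both crypt replicates, against 33.1% of all genes, and Ccnd3 alone was higher in both, against 30.1%. Of the 10, 6 were lower on every measured array (Myc, Mycn, Ccnd1, Ccnd2, Cdk2 and Cdk6), against 18.6%. In organoids Mycn and Ccnd3 had both deleted cultures above both wild type ones by Cy5, against 18.2% of all genes. The median change of the 10 genes was -0.43 in deleted crypts, where the median of all genes was -0.02. In deleted organoids it was -0.66 by Cy5, against 0.02, and -0.49 by ratio, against 0.03. Without R-spondin it was -1.99, against 0.07. Myc, Ccnd1, Ccnd2 and Cdk6 were lower in both crypt replicates, lower in both deleted organoids than in both wild type ones and past 2-fold lower without R-spondin, as 3.74% of 10806 genes were. No member differed between crypts and organoids after adjustment, where 0.0795% of 11325 genes did, and 3 did at an unadjusted p under 0.05 (Mycn, Ccnd2 and Cdk6), against 5.84%. For Ccnd2 that test used the probe of its organoid value, which read -0.62 in crypts. The probe of its crypt value read -1.04 in crypts and -1.52 in organoids by Cy5, and was not tested for the difference. The interaction for Cdk6 was 1.06 (SE 0.36; limma adjusted p = 0.706), the crypt change being the smaller. By ratio it was 0.40 (limma adjusted p = 0.803), and none of the 3 genes had an unadjusted p under 0.05.

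The 2 organoid slides each held 1 deleted and 1 wild type culture. With slide as a block, Ccnd2, Cdk6, Myc and Ccnd1 passed the adjusted test, with limma adjusted p = 0.00533, 0.00515, 0.0269 and 0.0226, and 334 genes of the array passed in place of 5. Leaving out wild type replicate 1 gave Cdk6 an adjusted p of 0.0207, and leaving out deleted replicate 1 gave 0.415 for Cdk6 and 0.488 for Ccnd2. By the authors' processed Cy5 signals Ccnd2 and Cdk6 passed, with adjusted p = 0.0289 and 0.0233. By ratio both had 0.749, and by the series matrix, where Cdk6 was -1.0 log2, neither passed (adjusted p = 1 for both). In crypts Ccnd2 had an adjusted p of 0.0167 without replicate 1 (-1.93) and of 0.952 without replicate 2 (-0.16), in fits where the spread of the lone replicate is taken from the organoid arrays. Cdk6 had 0.0394 in crypts by the authors' own ratios.

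Of the genes downstream, the E2F and S phase list had its values below 0 in organoids. All 16 of its tested genes were lower in deleted organoids by Cy5, as 6326 of 13311 genes were (median -0.99, all genes 0.02). For 14 of them both deleted cultures lay below both wild type ones, against 18.5% of all genes, and 0 passed the adjusted test. By ratio all 16 were below 0, as 5820 of 12883 genes were (median -0.78, all genes 0.03). Mcm4 (-1.87) and Mcm2 (-1.81), helicase subunits that open DNA for replication, had the lowest values by Cy5, with -1.44 and -0.48 by ratio. Without R-spondin 13 of 15 were past 2-fold lower, against 6.47% of all genes, with Mcm3 at -3.37 and Mcm2 at -3.32 (median -2.56). In deleted crypts the list was closer to 0, with a median of -0.35 and 11 of 15 below 0, where 6407 of 12204 genes were. Pcna (-0.79), the replication clamp, and Rrm2 (-0.74), which makes DNA building blocks, had the lowest values, with Mcm2 at 0.00 and Mcm3 at 0.12. The crypt arrays of replicate 1 had list medians of -0.49 and -0.36, and those of replicate 2 had -0.07 and -0.02. The 10 genes stood the other way round, with medians of -0.33 and -0.16 on the arrays of replicate 1 and of -0.67 and -0.70 on those of replicate 2.

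Genes that Myc is known to activate make up the next list. In deleted organoids 9 of 10 tested were lower by Cy5, where 6326 of 13311 genes were (median -0.64). Of these, 7 had no overlap between groups, against 18.5% of all genes. Nop56 (-1.04), a ribosome assembly protein, and Ncl (-0.86), nucleolin, had the lowest values. By ratio 8 of 9 were below 0, where 5820 of 12883 genes were (median -0.40). Without R-spondin 6 of 8 were past 2-fold lower, against 6.47% of all genes (median -1.48), with Cad at -2.10 and Nop56 at -2.09. In crypts 3 of 10 were below 0, where 6407 of 12204 genes were, and the median was 0.15. Npm1 (-0.49) was lowest, followed by Nolc1 (-0.46). No gene of this list passed the adjusted test in either deletion comparison, and whether the lists differ between crypts and organoids was not tested.

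Regulators of these kinases and of E2F stood on both sides of 0, apart from the pocket proteins and E2F factors in crypts, and none passed the adjusted test. Of the CDK inhibitors, 4 of 6 were below 0 in crypts, where 6407 of 12204 genes were. In organoids by Cy5 4 of 7 were below 0, where 6326 of 13311 genes were. Cdkn1a, a CDK inhibitor also known as p21, was 1.17 log2 higher in deleted crypts (limma adjusted p = 0.17) and 0.77 higher in deleted organoids (limma adjusted p = 0.489). By ratio Cdkn1a was 0.43 higher in the organoids. Cdkn1b, p27, was -0.85 in deleted crypts and -0.58 in deleted organoids (-0.01 by ratio), where Cdkn2c was -0.69 (-0.48 by ratio). Without R-spondin Cdkn2c was -1.05 and Cdkn1c was 1.05. Mycl, the third gene of the Myc family, was lower in all 3 comparisons at -0.93, -1.13 (-0.72 by ratio) and -1.78. Mxd1, which antagonises Myc, was higher at 0.56, 0.76 (0.51 by ratio) and 1.43. All 12 tested pocket proteins and E2F factors were below 0 in crypts, where 6407 of 12204 genes were (median -0.25, highest -0.01). Of these 12, 6 were lower in both replicates, against 33.1% of all genes, and Tfdp2 (-0.80) and Rbl1 (-0.63) were lowest. In organoids 8 of 12 were below 0 by Cy5, led by E2f7 (-0.93, and -0.33 by ratio) and E2f6 (-0.79, and -0.27 by ratio), and without R-spondin E2f7 was -3.21 and E2f1 -1.83. Of the turnover and kinase regulators, Fbxo4 was 0.83 and Cdc25a -0.48 in crypts, Cables1 was 0.52 and Wee1 -0.43 in organoids, and Skp2 was -1.06 and Fbxo4 0.90 without R-spondin. Of the cyclins of later phases, Ccna2 was -2.56 and Ccnb1 -1.86 without R-spondin, where 4 of 6 were past 2-fold lower, against 6.47% of all genes. In crypts Ccnb2 was -0.64 and Ccna2 -0.55, and in organoids Ccng1 was 0.56 (0.05 by ratio) and Ccnb2 -0.35 (-0.17 by ratio). The Wnt targets used as a gauge, a list that holds Lgr5 itself, had medians of -0.71, -1.19 (-1.01 by ratio) and -2.09. In crypts Lgr5 was at -1.68 and Cd44 at -1.37, but Lgr5 is a deleted gene, so its value there is no gauge of the pathway. Of the 10 tested in crypts, 7 were below 0, where 6407 of 12204 genes were. Axin2 was at -0.69 there, and Sp5 was highest at 0.33. In organoids Axin2 was at -2.92 and Rnf43 at -2.10 (-4.69 and -1.01 by ratio). Without R-spondin Axin2 was at -3.52. Lgr5 was well above background with R-spondin but not without it, so no size is given for its change there.

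**Figure D4:**
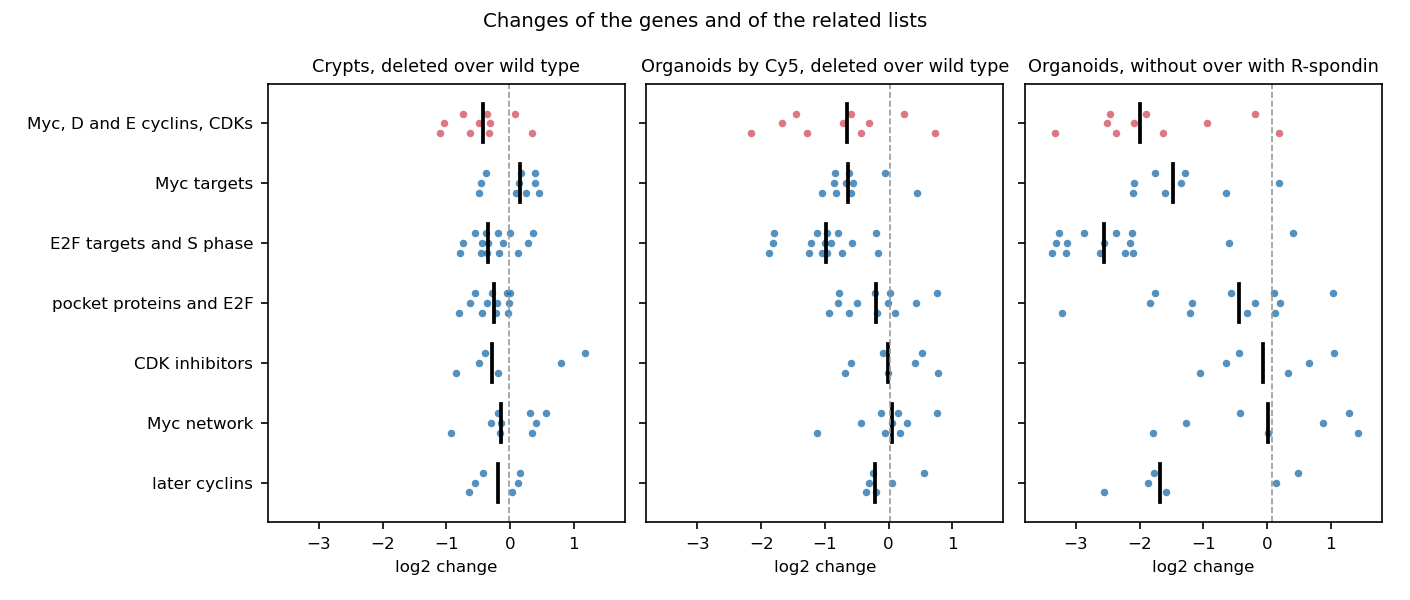
Log2 change of each gene (points) in the 10-gene set and in 6 related lists, in deleted over wild type crypts, in deleted over wild type organoids by Cy5 and without over with R-spondin. Black bars are list medians and the dashed line is the median of all genes. The E2F and S phase list has medians of -0.35, -0.99 and -2.56, and the Myc targets have 0.15, -0.64 and -1.48.

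Changes of cell type markers of crypts differed by list. The median of goblet cell markers was -0.07 in deleted crypts, 0.40 in deleted organoids by Cy5 (0.10 by ratio) and 0.68 without R-spondin. Crypt base stem cell markers, a list that holds Lgr5 itself, were below 0 for 7 of 7 in deleted crypts (median -1.33), 5 of 5 in deleted organoids (-1.59 by Cy5, -0.40 by ratio) and 7 of 7 without R-spondin (-2.47). Over all genes 6407 of 12204, 6326 of 13311 and 7279 of 17164 were below 0. Well above background were 5 of the stem cell markers without R-spondin and 7 with it, so some were compared only through the culture with R-spondin. Paneth cell markers had medians of -1.01, -0.64 (-0.34 by ratio) and -0.32. Of 7 tested, 5 were lower in both crypt replicates, against 33.1% of all genes. By Cy5 1 of 7 had both deleted organoids below both wild type ones, against 18.5% of all genes. Enterocyte markers had medians of 0.61, 0.55 (0.10 by ratio) and 0.23, the last over 3 tested genes. Summed immune cell markers lay between 17937 and 63572 in deleted crypts, against 6053 to 14480 in wild type crypts. Of these markers, 13 of 13 tested were higher in both replicates, against 30.1% of all genes, and their median change was 1.70. On all arrays 13 were well above background in deleted crypts and 11 in wild type crypts, so some were tested only through the deleted group. In organoids immune markers had a median of -0.03 by Cy5 (0.05 by ratio). Stroma and muscle markers had a median of -0.76 in crypts over 5 tested genes. Of this list, 5 were well above background on all arrays in wild type crypts and 2 in deleted crypts. Some were therefore tested only through the wild type group, which partly sets their direction in advance. No marker passed the adjusted test in either deletion comparison. The part of these markers in the changes of Myc, the cyclins and the kinases was not tested.

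Among 8489 genes with all 7 changes, those whose changes were nearest to those of Myc by root mean square difference were Zfp367 (0.234), Chek1 (0.234) and Cd44 (0.265). That Cd44 value is by another probe than the one given among the Wnt targets, and read -0.56 in crypts and -1.05 in organoids. Nup210 (0.229), Chek1 (0.248) and Car12 (0.263) were nearest to Ccnd1. For Ccnd2 the probe of its R-spondin value was used, which is not the one used in crypts or organoids and was not measured in crypt replicate 1. Over its 5 values Tifa (0.283) was nearest. The distances for Myc and Ccnd1 are over 4 crypt arrays, 2 organoid slides and 1 R-spondin pair. These values share arrays and are not independent.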

How the data were processed

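Per the file headers, the authors' scanner files hold spot and local background intensity from Agilent Feature Extraction 10.5.1.1, which the submitters' processing notes give as 8.5.1.1, on the mm9 build. The deposited log10 ratio column and series matrix hold the same ratios of the authors, except that the matrix reverses them where deleted crypts were labelled with Cy3. The number of arrays limits precision.

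The intensities were corrected with normexp (offset 50) in limma 3.58.1 under R 4.3.3, and log2 values computed. Spots marked as outliers were left out, and control spots had weight 0 in loess. Crypt ratios were loess-normalised, set to read deleted over wild type, then averaged within dye-swap pairs. Organoid Cy5 values were quantile-normalised, and R-spondin ratios were differenced. Two-sided limma tests with Benjamini-Hochberg adjustment ran over all genes. The genes and lists were chosen with earlier results of these data known. From each list the genes with the largest absolute change were named, plus any that passed. Known changes in simulated data were recovered in median size. They were larger than nearly all changes of these genes in deleted samples, and smaller ones were not simulated. False calls were near the set rate when spreads followed limma's prior and above it when they followed the shrunken estimates. Slide was not a stated pairing.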

Additional observations from a re-analysis of the deposited data

Results flagged for a closer look

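Mycn read below 0 in both deleted crypt replicates and above 0 on both organoid slides by Cy5. In crypts it read -0.37 in replicate 1 and -0.36 in replicate 2, and in organoids by Cy5 it read 0.77 on slide 1 and 0.70 on slide 2. The crypt change minus the organoid change was -1.10 (SE 0.32; limma adjusted p = 0.574), so the difference did not pass the test, and by ratio the organoid change was -0.20.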

How the results depend on the processing

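With 2 replicates a group the counts of called genes moved widely. In crypts 6 genes passed. The authors' processed signals and the series matrix, which are the same values, gave 501, median centring 334, keeping outlier spots 41, no filter 0, every probe as its own feature 33, and the 4 arrays with a dye term, which counts technical arrays as samples, 559. Alternatives added after the data were seen, which take replicate 1 from 1 array, gave 186 with its deleted-in-Cy5 array and 459 with the other. Leaving out a replicate, with the spread pooled from the organoid arrays, gave 3 to 565. In organoids 5 passed by Cy5, against 0 by ratio, 80 by processed Cy5 signals, 10 by 75th percentile scaling, 1 with outlier spots kept, 0 with no filter, 13 by the series matrix, 334 with slide as a block (replicate block) and 3 to 111 leaving out 1 culture. The 2 pairs of cultures on shared slides are no pairing stated in the labels. Without R-spondin 2830 genes were past 2-fold by processed signals or the series matrix, against 1884.

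The median of the 10 genes was -0.62 to -0.20 in crypts and -1.10 to -0.29 in organoids when a replicate was left out, and it was 0.04 in organoids by the series matrix, where the median of all genes was 0.16. Median centring put the median of all genes at 0.15 in crypts. Single genes reversed as follows, and the cause was not tested. In crypts Mycn was 0.05 under median centring, and Ccne1 was -0.03 with outlier spots kept, 0.00 to 0.17 leaving out a replicate and -0.23 with only the deleted-in-Cy3 array of replicate 1. In organoids Mycn was -0.20 by ratio, Ccne2 -1.13 to 0.26 leaving out 1 culture, and Ccne1 0.12, Cdk2 0.10 and Cdk4 0.40 by the series matrix. Without R-spondin Ccnd3 was 0.09 by Cy5. Myc, Ccnd1, Ccnd2 and Cdk6 kept a negative sign in every alternative run that measured them, by the probe used in that run. In crypts Ccnd2 was measured in 10 alternatives, against 12 for the other 3 genes, and with outlier spots kept it was by another probe.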
